A study of Mus musculus with 14 samples.

Results

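The 30 genes of Wnt ligands, R-spondins, their receptors, secreted inhibitors and the feedback regulator Axin2 were followed in mouse uterus at mid-gestation, with and without an antibody that targets regulatory T cells. They were taken by gene symbol, as every symbol made of Wnt, Fzd, Sfrp, Dkk or Rspo with a number, plus Lrp5, Lrp6, Lgr4, Lgr5, Axin2 and Wif1, where the platform annotation paired it with a probe of the authors' value table. This gave 30 of 10544 genes with a named probe, through 42 probes, and all 30 passed the detection filter that left 10478 genes for testing. By role they were 10 Wnt ligands, 3 R-spondins, the R-spondin receptor Lgr5, 9 Wnt receptors, 6 secreted inhibitors and Axin2. RNA came from uterus of C57BL/6 mice aged 8 weeks on 14 Illumina BeadChip arrays: 4 of pregnant mice treated with PC61, 5 of pregnant mice treated with PBS and 5 of non-pregnant mice. The 2 pregnant groups were taken 12 days after fertilization. PC61 is a rat antibody against mouse CD25, part of the interleukin-2 receptor, given to deplete regulatory T cells (Treg), and PBS is its saline vehicle. No dose or day of injection, stage of the oestrous cycle or exact dissection is given in the sources used here, and nothing says that the arrays of a group came from separate mice, so p-values reflect the scatter among arrays, which may be technical.

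Wnt proteins are secreted lipid-modified signals that bind a Frizzled receptor, alone or with the co-receptors Lrp5 and Lrp6. In the canonical branch the signal spares beta-catenin from destruction, so that it enters the nucleus and drives TCF/LEF target genes, among them Axin2, which feeds back to destroy beta-catenin. Other Wnts, such as Wnt5a, act mostly through planar polarity and calcium branches. R-spondins, bound by Lgr receptors, keep Frizzleds at the cell surface, while secreted Frizzled-related proteins (Sfrp), Wif1 and most Dickkopf proteins (Dkk) restrain the pathway. In the mouse uterus Wnt7a is made by the luminal epithelium and is needed for the glands to form, Wnt5a is made by the stroma, and Wnt4 takes part in the change of stroma into decidua after implantation.

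Foxp3, the transcription factor that defines Treg, averaged 9.30 ± 0.37 in PC61 (n = 4), 9.36 ± 0.14 in PBS and 9.34 ± 0.16 in non-pregnant uterus (SD, n = 5 each), a change of -0.06 between PC61 and PBS (adjusted p = 0.887, limma; 95% interval -0.43 to 0.31). A fall of Foxp3 RNA, which would check the depletion, was not detected on the PC61 arrays. The median probe intensity was 93.0 to 140 and 16607 to 19729 probes were detected per array, with PC61 arrays inside both ranges. The leading principal component held 63.2% of the variance. Along it PC61 arrays 1 to 4 lay at 18.7, -0.34, 2.25 and 64.5, against 56.2 to 58.6 for PBS arrays and -74.4 to -73.1 for non-pregnant arrays, so that PC61 array 4 lay beside the PBS arrays and the other 3 in between. Defining genes of trophoblast and placenta, averaged over 14 measured of 18 listed, stood at -5.42, -4.99, -3.02 and 0.34 log2 units from the PBS mean on PC61 arrays 1 to 4. Their summed linear level was 1501 to 107500 on PC61 arrays, 72830 to 88000 on PBS arrays and 500.1 to 2573 on non-pregnant arrays, and 5 to 14, 14 and 2 of the 14 genes were detected on an array. Genes of embryonic nervous tissue (7 of 10 measured, summed level 2875 to 5539 on PC61, 3871 to 4542 on PBS and 291.9 to 381.6 on non-pregnant arrays) and of embryonic blood (5 of 6 measured, 19940 to 58680, 62340 to 69280 and 127.8 to 210.1) were also present in the pregnant uterus. Of the uterine markers, 4 of 6 were measured (Esr1, Hoxa10, Hoxa11 and Pgr), and 2 to 4 of them were detected on each array of every group. Their summed level was 253.7 to 1275 on PC61, 301 to 509.4 on PBS and 1011 to 2560 on non-pregnant arrays, and PC61 arrays 1 to 4 stood at -0.03, 1.44, 1.19 and -0.36 from the PBS mean. Between PBS and non-pregnant uterus the hormone receptor genes Pgr and Esr1 fell by 2.82 and 2.10 on the log2 scale (adjusted p = 0.000419 and 0.00128, limma). The pregnant samples thus all held RNA of embryonic type beside uterine RNA. RNA of placental type was plain on the PBS arrays and on PC61 arrays 3 and 4. On PC61 arrays 1 and 2 the placental sum, 1501 and 1727, lay inside the non-pregnant range, with 5 and 9 of the 14 genes detected. In such bulk tissue, fewer cells of a type and less RNA per cell cannot be told apart, and the part of tissue makeup in the Wnt results below was not tested.

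**Figure D1:**
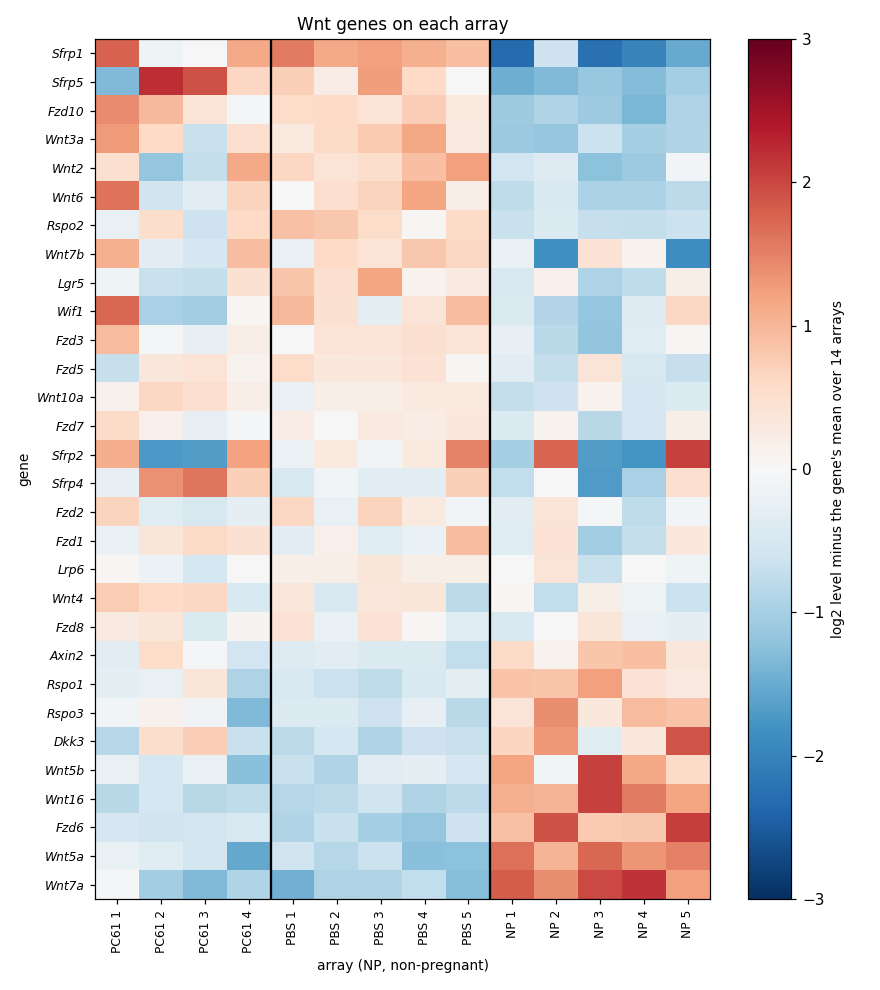
Log2 level of each of the 30 Wnt genes on each of the 14 arrays, minus that gene's mean over the arrays (colour, red higher and blue lower), with genes ordered by their fold change between PBS and non-pregnant uterus. The lowest rows, from Axin2 to Wnt7a, are high in the 5 non-pregnant columns, and PC61 columns 2 and 3 differ from PC61 column 4 for genes such as Sfrp2, Wif1 and Wnt2.

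The first comparison, PBS-treated pregnant against non-pregnant uterus, sets the pregnant uterus against the non-pregnant one, although the labels give no PBS treatment for the non-pregnant mice. Wnt genes were called in both directions within each class of ligand, R-spondin, receptor and inhibitor. Of the 30 genes, 11 were higher and 9 lower in PBS uterus, and 10 were not called. A call is an adjusted p under 0.05 from limma, with Benjamini-Hochberg adjustment over all 10478 genes. Over all genes, 22.9% were called higher and 23.7% lower, so a call is common among the genes measured. The median log2 fold change of the 30 was 0.48, against -0.03 over all genes, and the median absolute change was 1.16 against 0.50.

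**Figure D2:**
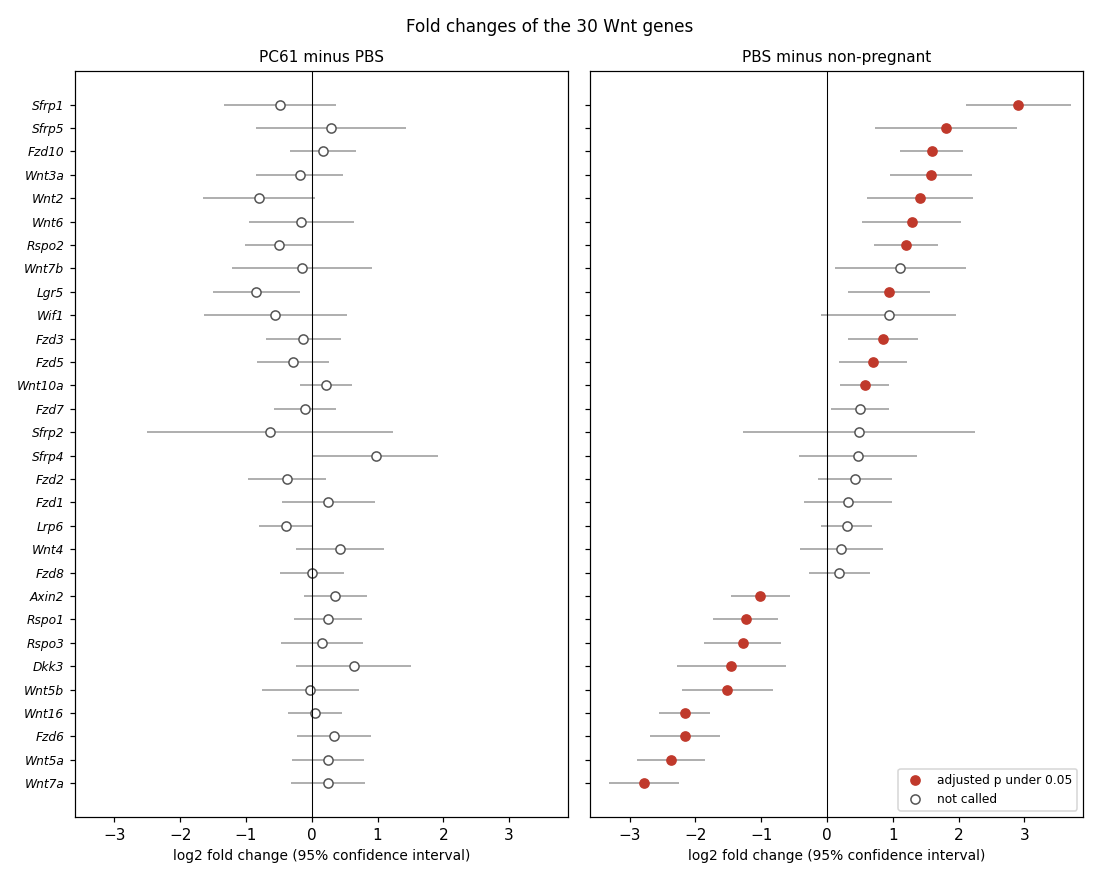
Log2 fold change with its 95% confidence interval (limma) for the 30 Wnt genes, PC61 minus PBS on the left and PBS minus non-pregnant on the right, in the same order of genes; filled points passed an adjusted p of 0.05. The right panel runs from -2.78 for Wnt7a to 2.91 for Sfrp1 with 20 filled points, and the left panel has none. For genes not above background in 1 group, such as Wnt16 and Wnt3a, the fitted value shown depends on the background level.

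The 4 ligands that fell in pregnant uterus included the epithelial Wnt7a and the stromal Wnt5a. Wnt7a (chromosome 6, 91363981 to 91411353 in GRCm38.p6) read 5.89, 6.40, 6.44, 6.59 and 6.05 on the PBS arrays, against 9.15, 8.73, 9.31, 9.51 and 8.56 on the non-pregnant arrays, in log2 units. Every PBS array lay below every non-pregnant array, and the difference was the largest fall among the 30 genes (log2 fold change -2.78, SE 0.25, adjusted p = 9.25e-07). Wnt5a, needed for outgrowth and polarity of the female tract in mice, read 10.07, 9.80, 10.03, 9.40 and 9.43 in PBS and 12.31, 11.69, 12.38, 11.99 and 12.18 in non-pregnant uterus, again with no overlap (log2 fold change -2.37, SE 0.24, adjusted p = 3.63e-06). A second Wnt5a probe fell by 2.31 on the log2 scale.

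Wnt16, a ligand with both canonical and other actions, was not well above background on any PBS array, at 4.35, 4.42, 4.62, 4.30 and 4.43, against 6.27, 6.23, 7.26, 6.77 and 6.40 on the non-pregnant arrays. Where no array of a group reached detection, the fold is a bound, taken on each such array against its lowest detected signal, or against the probe's reading where that is higher. Wnt16 was at least 2.82-fold lower in PBS uterus (adjusted p = 4.74e-07, limma). All 3 of its probes fell, by 1.12, 2.10 and 2.16, and the probe with the smallest change was detected on 1 PBS array. Wnt5b, close to Wnt5a in sequence, read 5.79, 5.55, 6.14, 6.15 and 5.95 in PBS and 7.64, 6.37, 8.50, 7.62 and 7.02 in non-pregnant uterus (log2 fold change -1.51, SE 0.33, adjusted p = 0.00168). Its highest PBS array lay below its lowest non-pregnant array, although the non-pregnant arrays themselves spread widely, from a lowest of 6.37 on array 2 to a highest on array 3.

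**Figure D3:**
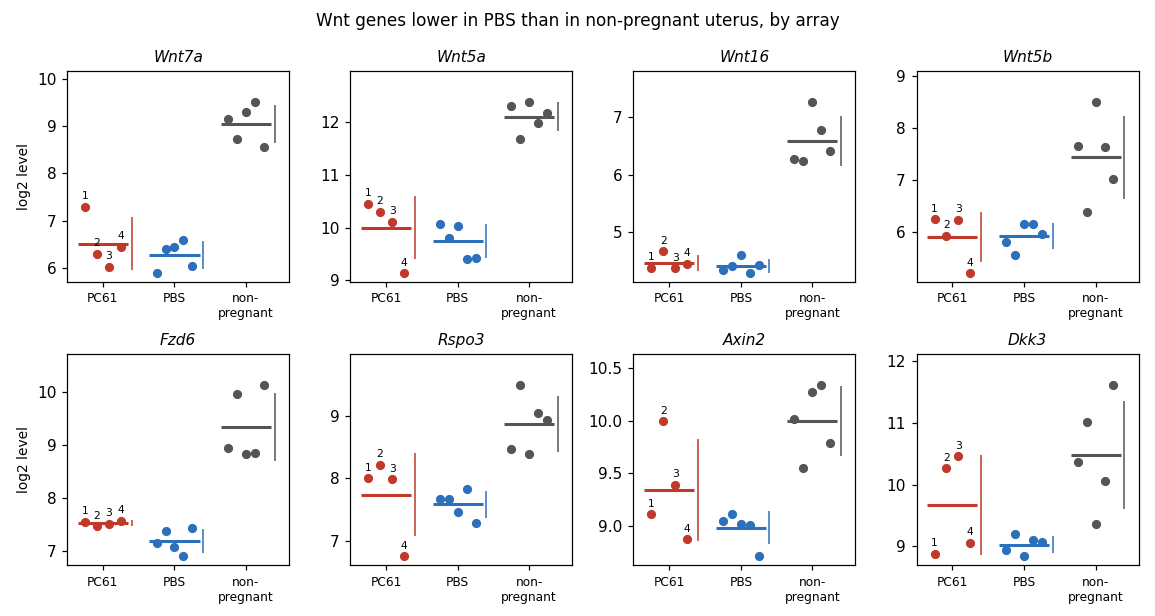
Log2 level on each array of 8 Wnt genes that were lower in PBS than in non-pregnant uterus; points are arrays, horizontal lines group means, vertical lines 1 SD, and the PC61 points carry their array number. In all 8 panels the PBS points lie below every non-pregnant point. PC61 array 2 lies inside the non-pregnant range for Axin2, and PC61 arrays 2 and 3 do for Dkk3.

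Promoter windows, from 250 bases before to 50 after a start site, were given for 16 of the 30 genes by RefSeq in GRCm38.p6 (18 windows), and are shown for the ligands Wnt7a and Wnt5b and the target gene Axin2, which fell, and the receptor Fzd10, which rose. TCF/LEF motifs, searched on both strands as the words CTTTGAA, or CTTTGAT, or else CTTTGTA, or finally CTTTGTT, which cannot share the same 7 bases, stood in 2 of the 18 windows, those of Fzd7 and 1 of 3 of Wnt5b. Of all 32851 windows given, with none left out, 16.9% held at least 1. Capitals mark the CTTTGAT of Wnt5b, 71 bases before its start site, and the other windows shown hold no match in these letters. The windows lie at chr6:91411304-91411603 (minus strand) for Wnt7a, chr6:119449337-119449636 (minus) for Wnt5b, chr11:108920099-108920398 (plus) for Axin2 and chr5:128600856-128601155 (plus) for Fzd10, with 76.0%, 55.0%, 70.0% and 77.7% G and C.
Wnt7a: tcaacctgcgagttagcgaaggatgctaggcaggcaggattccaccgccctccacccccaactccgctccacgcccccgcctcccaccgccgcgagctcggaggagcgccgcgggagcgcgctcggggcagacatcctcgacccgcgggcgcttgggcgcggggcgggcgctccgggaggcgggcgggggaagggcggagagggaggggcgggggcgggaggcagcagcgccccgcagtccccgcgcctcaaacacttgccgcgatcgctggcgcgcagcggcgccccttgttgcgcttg
Wnt5b: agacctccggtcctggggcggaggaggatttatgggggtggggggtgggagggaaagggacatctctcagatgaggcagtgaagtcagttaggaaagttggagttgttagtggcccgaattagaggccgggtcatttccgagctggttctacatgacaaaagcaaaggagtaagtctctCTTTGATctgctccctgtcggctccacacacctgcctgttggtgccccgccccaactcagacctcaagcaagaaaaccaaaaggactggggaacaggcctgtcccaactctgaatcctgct
Axin2: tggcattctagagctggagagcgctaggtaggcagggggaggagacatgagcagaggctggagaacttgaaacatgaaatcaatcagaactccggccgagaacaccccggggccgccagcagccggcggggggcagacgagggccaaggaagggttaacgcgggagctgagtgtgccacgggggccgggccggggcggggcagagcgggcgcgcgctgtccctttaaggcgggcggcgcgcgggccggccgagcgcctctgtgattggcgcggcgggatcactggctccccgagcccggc
Fzd10: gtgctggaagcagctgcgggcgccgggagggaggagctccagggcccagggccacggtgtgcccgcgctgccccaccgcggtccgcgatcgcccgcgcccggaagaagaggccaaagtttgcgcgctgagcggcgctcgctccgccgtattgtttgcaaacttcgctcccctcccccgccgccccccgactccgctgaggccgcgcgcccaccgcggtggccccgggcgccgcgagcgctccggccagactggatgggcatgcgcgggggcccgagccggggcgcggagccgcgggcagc

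Another 4 ligands rose in pregnant uterus. Wnt3a, a canonical ligand known for its role in the tail bud of the mouse embryo, read 5.70, 5.97, 6.17, 6.57 and 5.66 in PBS uterus, against 4.29, 4.24, 4.76, 4.41 and 4.49 in non-pregnant uterus, where it was not above background on any array. It was at least 1.81-fold higher in PBS (adjusted p = 0.000535, limma). Wnt2, needed for the vessels of the mouse placenta, read 6.34, 6.13, 6.25, 6.62 and 6.96 in PBS and 5.15, 5.34, 4.49, 4.63 and 5.64 in non-pregnant uterus (log2 fold change 1.41, SE 0.38, adjusted p = 0.00692). Groups did not overlap for either gene, and Wnt2 reached detection on all 5 PBS and 3 non-pregnant arrays.

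Wnt6, a ligand of epithelia and of the stroma during decidualization, read 5.92, 6.45, 6.61, 7.12 and 6.13 in PBS and 5.18, 5.49, 4.98, 4.98 and 5.16 in non-pregnant uterus (log2 fold change 1.29, SE 0.35, adjusted p = 0.00800). The groups were separate here too, and its second probe did not reach detection on any array. Wnt10a was the fourth, with 5.10 to 5.62 in PBS and 4.62 to 5.42 in non-pregnant uterus, where it was not above background. The rise was at least 1.24-fold (adjusted p = 0.0141), the ranges overlapped, and the call was lost without background correction and with the authors' value table.

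Both remaining ligands missed the threshold. Wnt4, the ligand tied to decidualization, read 7.50, 6.69, 7.49, 7.52 and 6.37 in PBS and 7.22, 6.41, 7.33, 7.01 and 6.51 in non-pregnant uterus. The groups overlapped over most of their range (log2 fold change 0.22, SE 0.30, adjusted p = 0.572; 95% interval -0.41 to 0.85). Wnt7b, a ligand of chorion and epithelium in mice, averaged 8.45 ± 0.39 in PBS and 7.33 ± 1.10 in non-pregnant uterus (SD, n = 5 each; adjusted p = 0.0627, limma), with 2 of the 5 non-pregnant arrays far below the other 3, at 6.16 and 6.14.

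The R-spondins split as well. Rspo3, known for its role in placental vessels, averaged 7.59 ± 0.22 in PBS and 8.87 ± 0.45 in non-pregnant uterus (SD, n = 5 each), a fall with no overlap (log2 fold change -1.28, SE 0.27, adjusted p = 0.00155). Rspo1, an ovarian and epithelial R-spondin, read 4.51 to 5.00 in PBS uterus, where no array reached detection, and 5.54 to 6.49 in non-pregnant uterus. It was at least 1.87-fold lower in PBS (adjusted p = 0.000531, limma).

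Rspo2, an R-spondin of limb and lung in the embryo, ran the other way, at 5.81, 5.72, 5.47, 4.96 and 5.50 in PBS and 4.25, 4.48, 4.22, 4.22 and 4.28 in non-pregnant uterus. No non-pregnant array reached detection, and the rise was at least 1.26-fold (adjusted p = 0.000648, limma). Lgr5, the R-spondin receptor that marks stem cells of several epithelia, read 6.01, 5.67, 6.37, 5.30 and 5.44 in PBS and 4.71, 5.34, 4.26, 4.43 and 5.36 in non-pregnant uterus. Its mean rose although the top 2 non-pregnant arrays lay just above the lowest PBS array (log2 fold change 0.94, SE 0.29, adjusted p = 0.0159), and it was detected on 5 PBS and 2 non-pregnant arrays.

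Among the 9 receptors, 3 rose, 1 fell and 5 were not called. Fzd6, a Frizzled of planar polarity, read 7.14, 7.37, 7.06, 6.89 and 7.43 in PBS and 8.93, 9.97, 8.84, 8.85 and 10.13 in non-pregnant uterus, a clear separation (log2 fold change -2.16, SE 0.25, adjusted p = 1.07e-05). Fzd10 moved the opposite way, at 8.26, 8.29, 8.11, 8.45 and 8.01 in PBS and 6.64, 6.81, 6.61, 6.33 and 6.77 in non-pregnant uterus, also with a wide gap between the groups (log2 fold change 1.59, SE 0.22, adjusted p = 6.21e-05). The other 2 that rose were smaller: Fzd3, a polarity receptor of developing axons, by 0.85 (adjusted p = 0.0119), and Fzd5, which mice need for placental vessels, by 0.70 (adjusted p = 0.0266, limma). Both overlapped between groups. A second Fzd3 probe gave 0.17 (adjusted p over all probes = 0.526, limma). The Fzd5 call was lost without PBS array 1, PBS array 4 or non-pregnant array 2, 4 or 5. A second Fzd5 probe rose by 0.90 (adjusted p over all probes = 0.00103, limma). Its groups did not overlap, and no non-pregnant array was above background. Fzd1, Fzd2, Fzd7, Fzd8 and the co-receptor Lrp6 gave changes of 0.19 to 0.50, with adjusted p from 0.0604 to 0.493.

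Of the secreted inhibitors, Sfrp1 and Sfrp5 rose and Dkk3 fell. Sfrp1, which binds Wnts outside the cell, read 10.24, 9.83, 9.92, 9.76 and 9.60 in PBS and 6.40, 8.08, 6.46, 6.69 and 7.19 in non-pregnant uterus. Its lowest PBS array exceeded its highest non-pregnant array, and the rise was the largest among the 30 genes (log2 fold change 2.91, SE 0.37, adjusted p = 2.86e-05). A second Sfrp1 probe rose by 3.06. Sfrp5, of the same family, read 6.49, 6.00, 7.03, 6.36 and 5.78 in PBS and 4.31, 4.46, 4.64, 4.47 and 4.75 in non-pregnant uterus, where it was not above background, a rise of at least 2.25-fold (adjusted p = 0.00900, limma).

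Dkk3, a divergent Dickkopf protein that is not a typical Lrp6 antagonist, read 8.94, 9.19, 8.84, 9.11 and 9.07 in PBS and 10.37, 11.02, 9.36, 10.05 and 11.61 in non-pregnant uterus, close but not overlapping (log2 fold change -1.45, SE 0.39, adjusted p = 0.00695). A second Dkk3 probe fell by 1.43 (adjusted p over all probes = 0.00749, limma). On that probe the groups overlapped, with PBS array 2 at 8.82 above non-pregnant array 3 at 8.69. Sfrp4, another Frizzled-related protein, read 5.91, 6.30, 6.06, 6.04 and 7.10 in PBS and 5.65, 6.39, 4.69, 5.43 and 6.89 in non-pregnant uterus, with overlapping ranges (log2 fold change 0.47, SE 0.42, adjusted p = 0.373). Sfrp2 had the widest spread of the 30 genes in non-pregnant uterus, averaging 7.43 ± 0.66 in PBS and 6.95 ± 1.89 in non-pregnant uterus (SD, n = 5 each; adjusted p = 0.659), and Wif1 had a change of 0.94 (adjusted p = 0.122, limma).

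Axin2, a common readout of canonical signalling, read 9.05, 9.12, 9.02, 9.01 and 8.71 in PBS and 10.02, 9.55, 10.28, 10.34 and 9.79 in non-pregnant uterus. All PBS arrays lay below all non-pregnant arrays (log2 fold change -1.01, SE 0.21, adjusted p = 0.00126). The calls of Axin2 and Dkk3 were lost when arrays were scaled by their median in place of quantile normalization, at -0.80 and -1.21, a setting that itself moved the median of all genes to 0.16. Markers of several tissues differed along with these genes. The endometrial epithelium list (15 of 20 measured) summed to 17920 to 21700 in PBS and 21390 to 54910 in non-pregnant uterus. Of its genes, 2 were called higher in PBS, 5 lower and 8 were not called. The smooth muscle list (11 of 12 measured) summed to 41440 to 58800 in PBS and 77200 to 100600 in non-pregnant uterus, with 0 called higher and 6 lower. Leucocyte genes (6 of 8 measured) summed to 4839 to 5378 in PBS and 10540 to 12460 in non-pregnant uterus, with 5 of the 6 called lower and 1 higher. Decidual genes (9 of 12 measured, 3 of them also in the uterine list) summed to 14070 to 26920 in PBS and 4314 to 11090 in non-pregnant uterus, with 2 called higher and 4 lower. The endothelial list (6 of 7 measured) summed to 3399 to 4730 in PBS and 3684 to 4750 in non-pregnant uterus, with 1 called higher and 3 lower. Their part in the Wnt changes, and that of the placental and embryonic genes, was not tested.

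**Figure D4:**
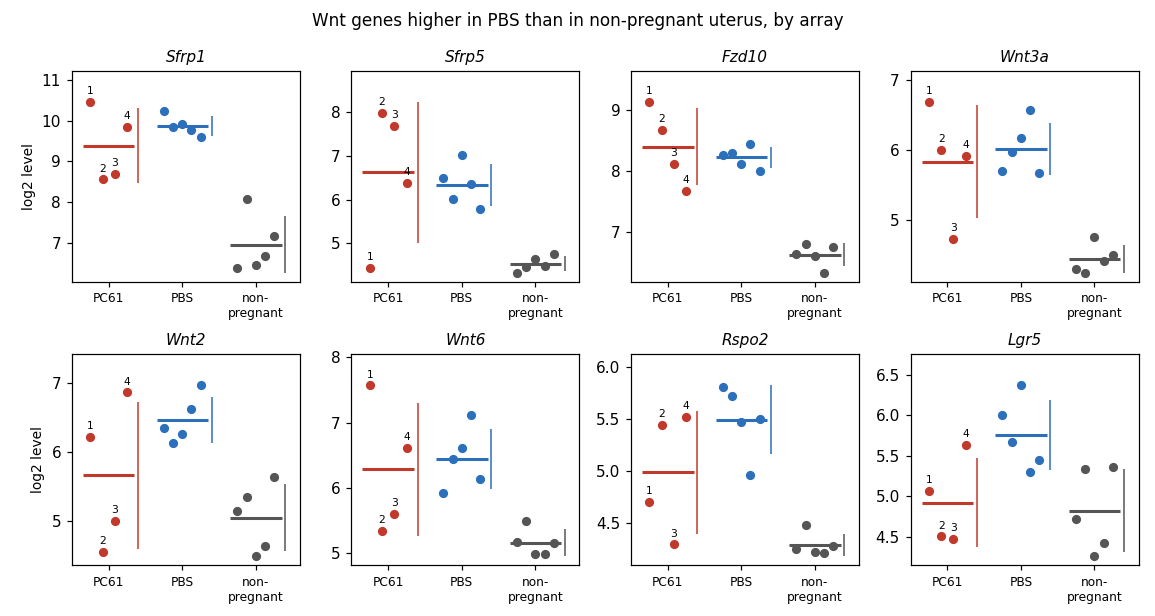
Log2 level on each array of 8 Wnt genes that were higher in PBS than in non-pregnant uterus, drawn as in the plot of the lower genes. The PBS points stand clear of the non-pregnant points except for Lgr5, and the PC61 points span much more of the axis, with arrays 2 and 3 low for Sfrp1, Wnt2, Wnt6 and Lgr5 but high for Sfrp5.

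A further list of 75 Wnt pathway genes had 57 measured, and 14 of these rose, 15 fell and 28 were not called in PBS against non-pregnant uterus, with a median of 0.11 against -0.03 over all genes. That is 24.6% higher and 26.3% lower, near the 22.9% and 23.7% of all genes. The 8 of lowest p were Celsr3, Prickle2, Csnk1e, Msx1, Csnk1d, Draxin, Wls and Dact2. Celsr3, a planar polarity cadherin best known in neurons, read 8.63, 9.03, 8.59, 8.85 and 8.70 in PBS and 4.54, 4.46, 5.45, 5.03 and 4.77 in non-pregnant uterus, where no array reached detection. It was at least 12.1-fold higher in PBS uterus (adjusted p = 2.40e-09, limma). Wls, the carrier that brings Wnt proteins to the cell surface, read 8.94, 9.27, 9.08, 8.53 and 8.74 in PBS and 10.31, 10.55, 10.11, 10.07 and 10.51 in non-pregnant uterus (log2 fold change -1.40, SE 0.22, adjusted p = 0.000160).

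Every PBS array was below every non-pregnant array for Wls. Msx1, a homeobox gene of the receptive uterus and a Wnt target, fell by 2.57 on the log2 scale (adjusted p = 7.13e-05), the polarity gene Prickle2 fell by 1.65 (adjusted p = 1.75e-05) and the antagonist Dact2 fell by 1.05 (adjusted p = 0.000444, limma). The kinases Csnk1e and Csnk1d rose by 1.01 and 1.12, and Draxin, a secreted Wnt antagonist of the nervous system, was at least 2.03-fold higher, being not above background in non-pregnant uterus (adjusted p = 0.000105). Ctnnb1, which encodes beta-catenin, averaged 12.41 ± 0.31 in PBS and 12.16 ± 0.18 in non-pregnant uterus (SD, n = 5 each; log2 fold change 0.25, SE 0.20, adjusted p = 0.334). Lef1, a DNA-binding partner of beta-catenin, had a change of 0.64 (adjusted p = 0.0727, limma).

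The second comparison, PC61 against PBS uterus, asks whether treatment with the antibody moved the same genes. None of the 30 passed, with a lowest adjusted p of 0.235 in limma, and 0% of all 10478 genes did. At an unadjusted p under 0.05 there were 2 of the 30, Lgr5 and Sfrp4, against 15.5% of all genes. The point estimates were 15 above and 15 below zero, with a median of -0.01 against 0.01 over all genes. Groups failed to overlap for 2 genes, Fzd6 (PC61 above PBS) and Lrp6 (PC61 below PBS), against 1.82% of all genes, and the estimate for Fzd6 turned under median scaling, from 0.34 as reported to -0.03.

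Lgr5 had the lowest p, but it was detected on only 1 of the 4 PC61 arrays. Without background correction its change was -0.28. It read 5.06, 4.51, 4.47 and 5.64 on PC61 arrays 1 to 4 and 6.01, 5.67, 6.37, 5.30 and 5.44 on the PBS arrays, so that 3 PC61 arrays lay below every PBS array and array 4 inside their range (log2 fold change -0.84, SE 0.31, adjusted p = 0.235). Sfrp4 read 6.15, 7.77, 7.99 and 7.10 in PC61 and 5.91, 6.30, 6.06, 6.04 and 7.10 in PBS uterus. Arrays 2 and 3 were above every PBS array, while arrays 1 and 4 were inside the PBS range (log2 fold change 0.97, SE 0.44, adjusted p = 0.312). Rspo2 read 4.70, 5.44, 4.30 and 5.52 in PC61 uterus, with arrays 1 and 3 below the lowest PBS array of 4.96 (log2 fold change -0.50, SE 0.24, adjusted p = 0.332, limma). It was detected on 2 of the 4 PC61 arrays. Without PC61 array 4, Lgr5 and Wnt2 were called lower, at -1.08 and -1.20, where 14.6% of all genes were called. With arrays weighted by their fit, 10 of the 30 were called, 4 higher and 6 lower, beside 38.5% of all genes.

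Lrp6, the co-receptor of canonical signalling, read 5.72, 5.48, 5.12 and 5.64 in PC61 and 5.83, 5.84, 6.02, 5.84 and 5.84 in PBS uterus. The PC61 arrays were all lower, by little for array 1 (log2 fold change -0.38, SE 0.19, adjusted p = 0.348). Wnt2 read 6.22, 4.56, 5.00 and 6.86 in PC61 and 6.34, 6.13, 6.25, 6.62 and 6.96 in PBS uterus. PC61 arrays 2 and 3 lay far below every PBS array while arrays 1 and 4 did not (log2 fold change -0.80, SE 0.40, adjusted p = 0.348, limma). Wnt2 was detected on only 2 of the 4 PC61 arrays. Axin2 read 9.11, 9.99, 9.39 and 8.87 in PC61 uterus, where arrays 2 and 3 exceeded the highest PBS array of 9.12 and arrays 1 and 4 lay inside the PBS range (log2 fold change 0.36, SE 0.22, adjusted p = 0.440, limma). The direction of Axin2 turned under median scaling, to -0.01, a setting that moved the median of all genes to -0.30.

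For Wnt7a, Wnt5a and Wnt4 the 95% interval of the difference included zero. Wnt7a read 7.30, 6.30, 6.02 and 6.44 in PC61 and 5.89, 6.40, 6.44, 6.59 and 6.05 in PBS uterus, with array 1 above every PBS array and the other 3 inside their range (log2 fold change 0.24, SE 0.26, adjusted p = 0.680; 95% interval -0.32 to 0.81). Without array 1 the change was -0.02. Wnt5a read 10.46, 10.30, 10.11 and 9.13 in PC61 uterus, with arrays 1 to 3 above the highest PBS array of 10.07 and array 4 below the lowest of 9.40 (log2 fold change 0.25, SE 0.26, adjusted p = 0.657; interval -0.30 to 0.80). Wnt4 read 7.91, 7.76, 7.78 and 6.71 in PC61 uterus, with arrays 1 to 3 above the highest PBS array of 7.52 and array 4 inside the range (log2 fold change 0.43, SE 0.31, adjusted p = 0.518; interval -0.24 to 1.10, limma). Of these estimates, those of Wnt7a and Wnt5a turned negative under median scaling, at -0.11 and -0.09.

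The PC61 arrays differed from each other more than their mean differed from PBS, where the median absolute change of a Wnt gene was 0.27. The median SD of a Wnt gene was 0.56 in PC61, 0.31 in PBS and 0.43 in non-pregnant uterus, against 0.40, 0.24 and 0.25 over all genes. Counting each array against the PBS range, PC61 arrays 1 to 4 had 5, 10, 14 and 8 of the 30 genes below it and 15, 12, 11 and 2 above it. Over all genes 23.8, 30.8, 32.5 and 19.4% lay below and 33.8, 32.1, 31.6 and 15.5% above. Array 4 was thus the one with the fewest Wnt genes outside the PBS range, and the same array held placental genes at the PBS level.

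Some genes set arrays 2 and 3 apart from arrays 1 and 4. Wif1, a secreted Wnt inhibitor, read 7.22, 4.52, 4.46 and 5.57 in PC61 and 6.49, 5.96, 5.23, 5.89 and 6.42 in PBS uterus, with arrays 2 and 3 below every PBS array. Wif1 was detected on only 2 of the 4 PC61 arrays. Sfrp2 read 8.16, 5.36, 5.39 and 8.28 in PC61 and 6.89, 7.36, 6.99, 7.36 and 8.56 in PBS uterus, and arrays 2 and 3 were again the low ones. Sfrp1 read 10.46, 8.56, 8.69 and 9.84 in PC61 uterus, against 9.60 to 10.24 in PBS, with the same 2 arrays low. For Dkk3 they were high instead, at 8.88, 10.27, 10.46 and 9.06 on arrays 1 to 4, against 8.84 to 9.19 in PBS uterus.

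Embryonic blood and leucocyte markers also set arrays 2 and 3 apart, while smooth muscle markers set array 4 apart and decidual markers array 1. Embryonic blood genes stood at 0.09, -2.19, -2.46 and -0.16 from the PBS mean on PC61 arrays 1 to 4, and leucocyte genes at -0.54, 0.75, 1.08 and -0.35. Smooth muscle genes stood at 1.32, 1.87, 1.66 and -0.74, endothelial genes at -0.62, 0.47, 0.61 and -0.14, and decidual genes at -1.66, 0.75, 0.92 and -0.21. Summed levels on the PC61 and PBS arrays were 3607 to 10670 and 4839 to 5378 for leucocytes, 28390 to 117700 and 41440 to 58800 for smooth muscle, 2248 to 5455 and 3399 to 4730 for endothelium, and 1922 to 26540 and 14070 to 26920 for decidua. Array 1 stood alone in Sfrp5, at 4.44 beside 7.99, 7.69 and 6.39 on arrays 2 to 4 and 5.78 to 7.03 in PBS uterus, and in the decidual prolactin gene Prl8a2, at 5.80 beside 13.54 to 13.60 on the other PC61 arrays and 12.73 to 13.99 in PBS uterus. Whether these tissue differences carry the Wnt values was not tested.

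**Figure D5:**
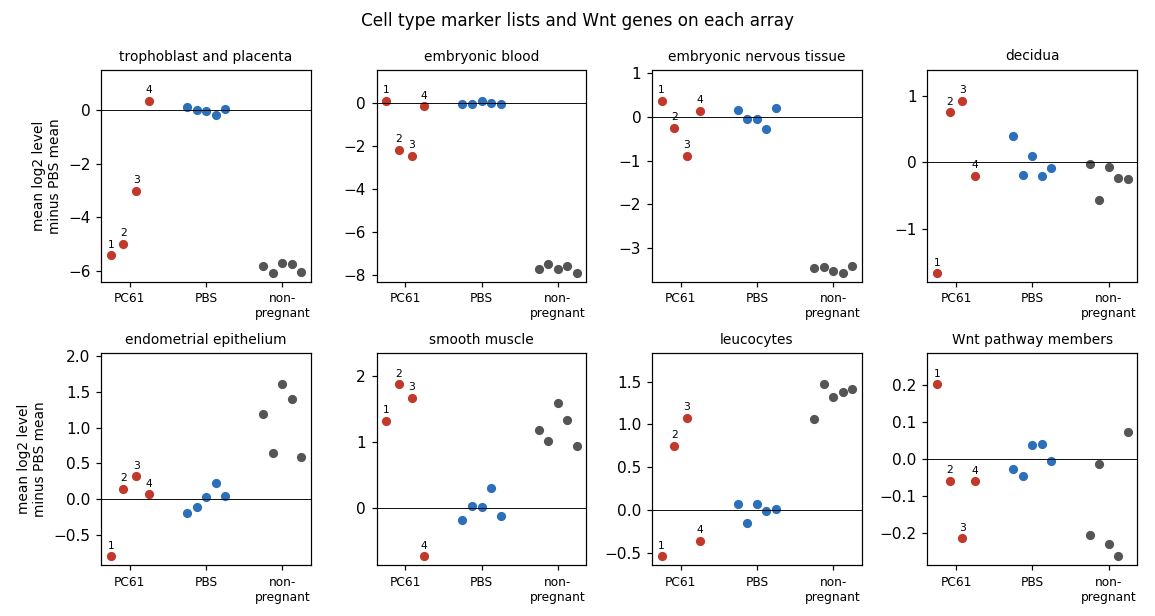
Mean log2 level of 7 cell type marker lists and of the 30 Wnt genes on each array, minus the mean of the 5 PBS arrays; PC61 points carry their array number. Trophoblast and placental genes range from -5.42 to 0.34 over the PC61 arrays, while the mean of the Wnt genes stays between -0.22 and 0.20. Single Wnt genes lay both above and below the PBS range on each PC61 array, so this mean does not show their spread.

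Of the 57 other pathway genes, 0 passed between PC61 and PBS (limma), with 3 higher and 4 lower at an unadjusted p under 0.05, which is 12.3% of them against 15.5% of all genes. The 8 of lowest p were Dvl1, Sostdc1, Csnk1e, Celsr3, Lef1, Nkd1, Gpc3 and Kremen2. Dvl1, which carries the signal from Frizzled, read 9.08, 9.51, 9.49 and 9.14 in PC61 and 8.82, 8.93, 8.66, 8.58 and 8.65 in PBS uterus and did not overlap (log2 fold change 0.58, SE 0.15, adjusted p = 0.154). Sostdc1, a secreted antagonist, read 7.56, 4.78, 4.45 and 7.49 in PC61 and 7.57, 7.57, 7.22, 7.66 and 7.54 in PBS uterus, with arrays 2 and 3 at background (log2 fold change -1.45, SE 0.54, adjusted p = 0.237). The glypican Gpc3 and the Dkk receptor Kremen2 had estimates of -1.33 and -1.34, again with arrays 2 and 3 lowest, at 8.97 and 9.31 for Gpc3 and 4.53 and 4.53 for Kremen2. Estimates were 0.55 for Celsr3, -0.40 for Csnk1e, 0.56 for the feedback inhibitor Nkd1, -0.08 for Ctnnb1 and 0.34 for Wls, with adjusted p from 0.238 to 0.889. Lef1 was not well above background on any PC61 array, and 4 of 5 PBS arrays detected it. The difference was not called (adjusted p = 0.276, limma). PBS array 2, at 4.84, lay below PC61 array 2, at 4.92, so no fold is given.

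The third comparison, PC61 against non-pregnant uterus, shares its PC61 arrays with the second and its non-pregnant arrays with the first, so the 3 sets of values are not separate evidence. Of the 30 genes, 8 were higher and 8 lower in PC61 uterus, against 13.7% and 14.6% of all genes, and the median was 0.39 against -0.02. Lower ones were Wnt7a (-2.54, adjusted p = 6.34e-06), Wnt5a (-2.11, 2.83e-05), Fzd6 (-1.82, 0.000142), Wnt5b (-1.53, 0.00433) and Rspo3 (-1.13, 0.00949), all in limma on the log2 scale, each with all 4 PC61 arrays below every non-pregnant array. Fzd6 was tight in PC61 uterus, at 7.55, 7.46, 7.51 and 7.57, and Rspo3 read 8.00, 8.22, 7.99 and 6.75. Wnt16, at 4.39, 4.67, 4.38 and 4.46 in PC61 uterus and not above background there on the probe shown, was at least 2.71-fold lower (adjusted p = 1.64e-06). Rspo1 also fell, by 0.99 (adjusted p = 0.00716, limma), but it was detected on only 1 of 4 PC61 arrays. Its groups overlapped, with PC61 array 3 at 5.62 above non-pregnant array 5 at 5.54.

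Higher ones were led by Sfrp1 (2.43, adjusted p = 0.000411) and Fzd10 (1.76, 7.17e-05), and Fzd10 read 9.13, 8.67, 8.12 and 7.68 in PC61 uterus, all above the non-pregnant arrays. Sfrp5 and Wnt3a, not above background in non-pregnant uterus, were at least 2.76-fold and 1.59-fold higher in PC61 uterus (adjusted p = 0.00915 and 0.00382), although 1 PC61 array of each lay within the non-pregnant range, array 1 for Sfrp5 and array 3 for Wnt3a (6.69, 6.00, 4.73 and 5.91 on arrays 1 to 4). Wnt10a was at least 1.44-fold higher (adjusted p = 0.00551). Rspo2 was called (adjusted p = 0.0426), but its bound gave no fold, with 2 PC61 arrays detected. That call was lost without PC61 array 2 or 4, PBS array 2, 3 or 5, or any 1 of the 5 non-pregnant arrays.

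Nearest the threshold, beside Rspo2, were Sfrp4 (log2 fold change 1.44, SE 0.44, adjusted p = 0.0245), Wnt6 (log2 fold change 1.13, SE 0.37, adjusted p = 0.0357) and Axin2 (log2 fold change -0.65, SE 0.22, adjusted p = 0.0398), all limma. Wnt6 read 7.57, 5.35, 5.61 and 6.62 in PC61 uterus, with array 1 highest and array 2 inside the non-pregnant range, and Axin2 array 2 lay inside that range too. Leaving out 1 array ended the call of Sfrp4 for PC61 array 2 or 3 and non-pregnant array 1, 3 or 4, and that of Wnt6 for PC61 array 1 or 4 and non-pregnant array 1, 3, 4 or 5. The call of Axin2 was lost without PC61 array 1, 3 or 4, PBS array 1, 2, 3 or 4, or non-pregnant array 1, 3 or 4. Lgr5 and Wnt4 were not called, at 0.10 and 0.65 (adjusted p = 0.837 and 0.139). Of the 9 genes that fell in PBS uterus, PC61 arrays 1 to 4 had 9, 7, 7 and 9 below the non-pregnant range, against 75.2, 64.6, 62.8 and 91.4% of all genes that fell. Of the 11 that rose, 8, 6, 6 and 10 lay above it, against 74.9, 60.9, 60.2 and 93.5%.

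Among the other pathway genes, 8 of 57 rose and 11 fell in PC61 against non-pregnant uterus, against 13.7% and 14.6% of all genes, so the share that rose was near that of all genes. The 8 of lowest p were Celsr3, Msx1, Draxin, Prickle2, Myc, Dact2, Csnk1d and Tcf7l2. Msx1 fell by 3.30 (adjusted p = 2.14e-05), Prickle2 by 1.32 and Dact2 by 1.10, while Csnk1d rose by 0.93 and Tcf7l2, a partner of beta-catenin at target genes, by 1.34 (adjusted p = 0.00306, limma). The proliferation gene Myc, not above background on any PC61 array and detected on 4 of 5 non-pregnant arrays, was at least 1.62-fold lower in PC61 uterus (adjusted p = 0.000524, limma). Celsr3 and Draxin, not above background in non-pregnant uterus, were at least 17.7-fold and 2.6-fold higher in PC61 (adjusted p = 1.57e-09 and 4.59e-05). Wls fell by 1.05 (adjusted p = 0.00400), and Ctnnb1 was not called, at 0.17. Lef1 was detected on 0 of 4 PC61 and 1 of 5 non-pregnant arrays, so no fold is given.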

How the data were processed

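Labels, the scanner table and the authors' value table were used for 14 arrays of mouse uterus (4 PC61, 5 PBS, 5 non-pregnant). Per the file headers, the deposited scanner table reports, for 45281 probes on every array, a mean bead intensity beside a detection p-value; the intensity values are not normalized between arrays, and the deposited p-value moves in steps of 1 in 936. The authors' value table holds log2 values of 16948 probes, deposited with a normalization that is not given in the sources used here; its column medians were 7.96 to 7.99, genes were not centred, and it was used as an alternative. The labels' protocols give Trizol and RNeasy extraction with DNase I and biotin-labelled cRNA made with an Ambion kit.

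With limma 3.58.1 under R 4.3.3, background was corrected by normexp from the detection p-values (offset 16), then log2 values were quantile normalized, as neqc does. Probes with detection p under 0.01 on at least 4 arrays were kept (20967), and each gene was shown by its kept probe of highest mean, which gave 10478 genes. Symbols came from the platform annotation of 15474 probes, of which 15469 had 1 symbol and 5 several; 15463 matched by Entrez identifier, and 29812 scanner probes had no single symbol here. The fit used lmFit with 3 group means and eBayes (11 residual and 3.40 prior degrees of freedom), two-sided, with Benjamini-Hochberg adjustment over all genes within each comparison. The script was tested on simulated data. Levels are never set between different genes, since each has its own probe, and 11 of the 30 genes have several probes.

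The 30 genes and the other lists were chosen with earlier results of these data known. Named in full were, per comparison, up to 12 called genes of largest change, or the 6 of lowest p where fewer than 5 were called, and always Wnt7a, Wnt4, Wnt5a, Lgr5, Axin2 and Sfrp4; from the other pathway genes, the 8 of lowest p with Ctnnb1, Lef1 and Wls. Rspo1, Rspo2, Rspo3, Wnt10a, Fzd3, Fzd5, Fzd6, Wif1, Sfrp2, Wnt7b, Sfrp1, Dkk3, Sfrp5, Prl8a2, Pgr, Esr1, Lcn2, Krt7, Cldn3, Cdh1 and Foxp3 stand outside that rule in some comparisons and were named after their values were seen. The lists named are Wnt genes, other pathway genes, trophoblast and placenta, embryonic nervous tissue, embryonic blood, uterus, endometrial epithelium, smooth muscle, decidua, endothelium and leucocytes. Alternatives covered background, scaling, filter, probe rule, value source, array weights, replicate block, the arrays fitted and leaving out each array. The number of arrays limits precision.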

Additional observations from a re-analysis of the deposited data

Results flagged for a closer look

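In groups of 4 or 5 arrays, a gene was marked when its highest or lowest array stood apart from the rest by more than Dixon's 95% critical value. This held for 8 of 90 gene and group combinations, where chance gives about 1 in 20. Of the PC61 arrays, array 4 was low for Rspo3, at 6.75 against 7.99 to 8.22 on the other 3, and for Wnt4, at 6.71 against 7.76 to 7.91. In the PBS group, array 5 was low for Axin2, at 8.71 against 9.01 to 9.12, and high for Sfrp2, at 8.56 against 6.89 to 7.36. PBS array 1 was low for Fzd3, at 5.81 against 6.21 to 6.30, and for Wnt10a, at 5.10 against 5.49 to 5.62. PBS array 3 was high for Lrp6, at 6.02 against 5.83 to 5.84. Non-pregnant array 2 was high for Rspo2, at 4.48 against 4.22 to 4.28, in a group where this probe was not above background.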

How the results depend on the processing

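Each result was recomputed under 23 alternative settings. Between PBS and non-pregnant uterus, 19 to 23 Wnt genes were called, against 20 as reported, and 16 of the 20 were called in every setting; Axin2, Dkk3, Fzd5 and Wnt10a were not. Between PC61 and non-pregnant uterus the count was 12 to 17, against 16, and 12 of the 16 were called in every setting; Axin2, Rspo2, Sfrp4 and Wnt6 were not. Between PC61 and PBS uterus the count was 0 as reported. It was 10 with array weights, 4 higher and 6 lower (Axin2, Dkk3, Lgr5, Lrp6, Sfrp1, Sfrp4, Sfrp5, Wif1, Wnt2 and Wnt6), where 38.5% of all genes were called, and 2 (Lgr5 and Wnt2) without PC61 replicate 4, where 14.6% of all genes were called; leaving out 1 array at a time it ranged from 0 to 2. The cause was not tested. Of the 30 estimates in PC61 against PBS, 16 took the other sign in at least 1 setting, all of them 0.36 or smaller in size as reported, against 6 in PC61 against non-pregnant and 0 in PBS against non-pregnant uterus. Median scaling turned 8, among them Axin2 (-0.013), Wnt5a (-0.087), Wnt7a (-0.113) and Fzd6 (-0.031). The sign of Wnt7a turned with array weights too (-0.017); leaving out single arrays, Wnt7a ranged from -0.019 to 0.41. For Lgr5 in PC61 against non-pregnant uterus, array weights gave -0.13 and leaving out arrays -0.14 to 0.25. Median scaling moved the median of all genes to -0.30 (PC61 against PBS), 0.16 (PBS against non-pregnant) and -0.15 (PC61 against non-pregnant), and split the calls of the last 2 into 12 higher and 7 lower and into 5 higher and 7 lower, against 11 and 9 and 8 and 8. With the replicate block, 0, 21 and 15 Wnt genes were called in the 3 comparisons; same-numbered arrays correlated at -0.18 to 0.19 over 12 pairs of arrays, with 3 over 0.1, so the numbers were not taken to pair arrays. Under the filter that needs detection on every array of a group, 28 of the 30 genes were tested. Low signal limits Lgr5, Rspo1, Rspo2, Wnt2, Wnt3a, Wnt10a, Wnt16, Sfrp5, Wif1 and Fzd1, which are near background in at least 1 group. It also limits Fzd3 and Wnt6, each detected on 3 of 5 non-pregnant arrays.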

Other observations

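Several Wnt genes varied within the non-pregnant group along the same arrays. On non-pregnant arrays 1 to 5, Sfrp2 read 6.09, 8.83, 5.39, 5.29 and 9.14, and Wnt7b read 7.80, 6.16, 8.44, 8.12 and 6.14. Fzd6 read 8.93, 9.97, 8.84, 8.85 and 10.13, and Dkk3 read 10.37, 11.02, 9.36, 10.05 and 11.61. Arrays 2 and 5 were thus the highest for Sfrp2, Fzd6 and Dkk3 and the lowest for Wnt7b. They were also the lowest for Wnt7a, Axin2, Wnt5b, Wnt4 and Fzd5. Sfrp1, Sfrp4, Wnt2, Lgr5, Fzd1, Fzd7, Fzd10 and Rspo2 were highest there too, Rspo2 without reaching detection. For the remaining Wnt genes, arrays 2 and 5 were neither both highest nor both lowest. Of the 15 measured genes of the endometrial epithelium list, 8 were lowest on these same 2 arrays (Cldn7, Elf3, Krt19, Krt7, Krt8, Lcn2, Muc1 and Sprr2f), 2 were highest there (Cdh1 and Cldn3) and 5 were neither. Among the low ones, the secreted antimicrobial protein gene Lcn2 read 13.73, 9.78, 14.28, 13.79 and 8.91, and the keratin gene Krt7 read 10.28, 8.82, 11.30, 10.96 and 8.66. The tight junction gene Cldn3 went the other way, at 10.29, 12.04, 10.14, 10.01 and 11.40. The pair of arrays was picked after the values were seen, and no share over all genes was counted. The 8 of 15 is therefore not shown to be particular to epithelial genes. The labels give no oestrous stage, and no difference between these arrays was tested.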
